A study of Mus musculus with 4 samples.

Results

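The solute carriers are the membrane proteins through which cells take up, release and redistribute nutrients, ions and metals, and 122 of their genes were above background in the memory CD4 T cells measured here. The members were all genes whose symbol on the array begins with Slc, a family number and a letter, leaving out Slc40a1 and Slc4a1, with a deposited intensity above 16 on at least 2 of the 4 arrays. The array carried 649 probes for 354 such genes. Of these probes 164 passed, and the one with the highest mean stood for its gene. The other 232 genes had no probe that passed. The members were thus chosen by their deposited intensity, so the levels below are a description. Genotype played no part in the choice, except for Slc41a2 as described below.

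The study measured total RNA on Illumina bead arrays, 2 from dKO mice and 2 from WT mice, in CD4+CD62L-CD44+ cells, the effector memory phenotype, sorted from spleen and lymph nodes. The dKO mice carried Lck-Cre, a knockout of MEKK2 and a floxed over a null allele of MEKK3, so that MEKK2 was missing from every cell while the remaining MEKK3 allele was deleted where the Lck promoter drives Cre, in T cells. WT mice carried none of these, and both groups were C57BL/6. MEKK2 and MEKK3 activate MAP kinase cascades from the top, and the title names TGF-beta-driven helper T cell differentiation as the subject. The labels give neither the age nor the sex of the mice, nor whether different mice stand behind the 2 arrays of each genotype, so the p-values rest on a spread between arrays that may be technical only. Each group has a replicate number 1 and a replicate number 2, and values below are given in that order.

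A resting memory T cell takes up little glucose or amino acid. On activation it brings glucose carriers and carriers of glutamine and large neutral amino acids to its surface, which feed glycolysis, protein synthesis and the kinase mTORC1. Mitochondrial carriers exchange nucleotides, phosphate and organic acids between matrix and cytosol, carriers of the Golgi bring in the activated sugars for glycoproteins, and zinc, iron and proton carriers set the metal content and pH of each compartment.

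Between 12763 and 13218 of 45281 probes exceeded 16 on each array. The deposited values of dKO 1 and WT 1 shared 1 distribution, with sorted values within 0.0846 of each other, and so did dKO 2 and WT 2 (within 0.0793), while WT 1 and WT 2 differed by up to 6979. The ratio of dKO over WT within a replicate number therefore compares arrays on the same scale. The arrays of number 2 had the higher mean intensity, 119 against 86.9, so deposited values of different numbers are not on 1 scale, and the genotypes are said not to overlap only where this held for deposited and for normalized values. Otherwise, on either scale, they are said to overlap. The share of all features without overlap was not counted. Members picked for their ratios in both numbers are likely not to overlap by that choice, so this adds no support. Transcripts of the T cell receptor chain Cd3e, of Cd4 and of Cd44 were above 16 on all 4 arrays by their brightest probes. The other Cd4 probe and most other Cd44 probes were not. Of the targeted genes, Map3k3 was at 204 and 246 in dKO cells, against 311 and 387 in WT cells, a log2 difference of −0.63 (adjusted p of 0.99991 in limma, or 0.215 when the replicate number is a block). Both Map3k2 probes were below 16 on all 4 arrays and check nothing, and whether the Map3k3 probe falls inside the deleted exons is not known here. Xist was at 2.96 and 1.09 on the dKO arrays and at 327 and 536 on the WT arrays, and the Y-linked Eif2s3y at 235 and 377 on the dKO arrays and 4.04 and 1.57 on the WT arrays. The dKO and WT arrays thus differ in sex-linked transcripts, so sex and genotype cannot be told apart in any comparison below.

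By what they carry, the members were spread unevenly over the family. Mitochondrial carriers gave 26 members of 47 genes on the array, carriers of metals and heme 17 of 32, and carriers of nucleotide sugars and acetyl-CoA in the Golgi and endoplasmic reticulum 16 of 28. Ion carriers gave 14 of 52, carriers of amino acids, taurine and creatine 11 of 47, carriers of sugars and sugar phosphates 8 of 27, and carriers of vitamins and choline 8 of 18. Peptide, lysosomal, vesicular and neurotransmitter carriers gave 9 of 30, nucleoside carriers 4 of 9, carriers of lipids and organic ions 4 of 38, and carriers of monocarboxylates 2 of 17. The Slc22 family of organic ion carriers, known mainly from kidney and liver, gave 1 of 21 genes, and the Slc6 family of neurotransmitter and amino acid carriers 4 of 19. Another 3 members are named after a carrier without being one: Slc9a3r1, a scaffold protein, Slc4a1ap, an adaptor, and Slc7a6os, a gene on the strand opposite Slc7a6. Intensities of different probes cannot be set against each other as levels, so a bright probe need not mean more transcript.

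**Figure D1:**
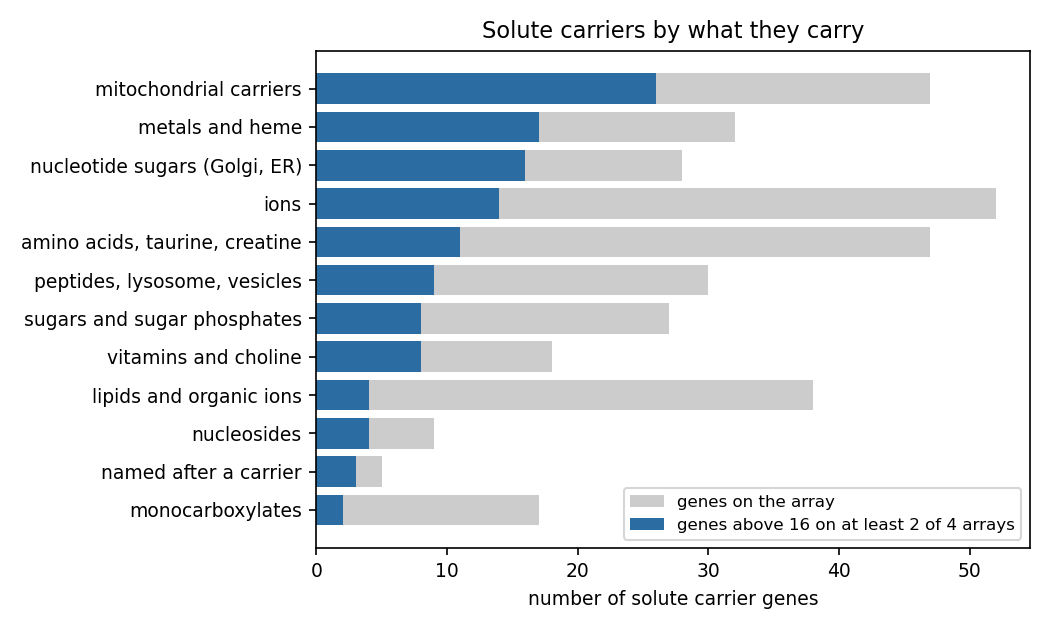
Number of solute carrier genes on the array (grey) and number with a probe above an intensity of 16 on at least 2 of the 4 arrays (blue), by what they carry. Mitochondrial carriers gave the most members, 26 of 47, and carriers of lipids and organic ions gave 4 of 38.

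Of the 122 members, 102 were above 16 on all 4 arrays, 12 on 3 and 8 on 2. Slc41a2, a magnesium carrier, passed through the WT arrays alone, at 10.2 and 12.4 in dKO cells, against 20.7 and 18.4 in WT cells, and so had to differ. The other 7 members above 16 on 2 arrays had 1 array of each genotype. Just inside the threshold, by the second highest array, were Slc6a8 (16.5), Slc6a12 (16.6) and Slc20a1 (17.8), and just outside it were Slc16a10 (15.4), Slc6a19 (15.1) and Slc8a1 (15.05). Mean intensities of the members ran from 14.8 for Slc6a8 to 3359.7 for Slc25a5, with a median of 63.9.

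Comparing dKO with WT cells, none of the 122 members passed the threshold. The largest differences that held in both replicate numbers were higher values in dKO cells of Slc15a3, a lysosomal carrier of peptides and histidine, and of Slc16a5, of the monocarboxylate carrier family. Slc37a1, an exchanger of glucose 6-phosphate for phosphate in the endoplasmic reticulum, and Slc43a1, a carrier of leucine and other large neutral amino acids, had lower values in dKO cells. The members as a whole had a median log2 difference near 0.

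Limma called 0 members higher and 0 lower, at an adjusted p below 0.05 over all 9662 features. Over all features it called 0.031% higher and 0.0103% lower, Xist and Eif2s3y among them. With the replicate number as a block it again called 0 members in either direction, against 0.197% of all features higher and 0.124% lower. At an unadjusted p under 0.05, 3 members were higher and 0 lower (all features 1.67% and 1.52%), and with the block 11 were higher and 9 lower (6.79% and 5.96%). The smallest adjusted p of a member was 0.99991, and 0.109 with the block. An exact permutation test of 2 arrays against 2 cannot go below 0.333, two-sided, so it was not used for single genes. The members' shares lay near those of all features.

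Within each replicate number, 4 members were at least 1.5-fold higher in dKO in both numbers (2.14% of all features were) and 2 at least 1.5-fold lower (1.55% of all features). At any size, 37 members were higher in both numbers (29.8% of all features) and 41 lower in both (28.6%), while 39 had opposite signs in the 2 numbers and 5 were at or below 16 on both arrays of a number. With log2(value + 16) in place of the floor at 16, 2 members were 1.5-fold higher in both numbers, Slc15a3 and Slc16a5, and 0 were lower. The median log2 difference of the members was −0.04, against 0.01 over all features, with members' medians of 0.02 in number 1 and −0.07 in number 2. Within a number, the absolute log2 difference between genotypes had a median of 0.28 over the members and 0.26 over all features.

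**Figure D2:**
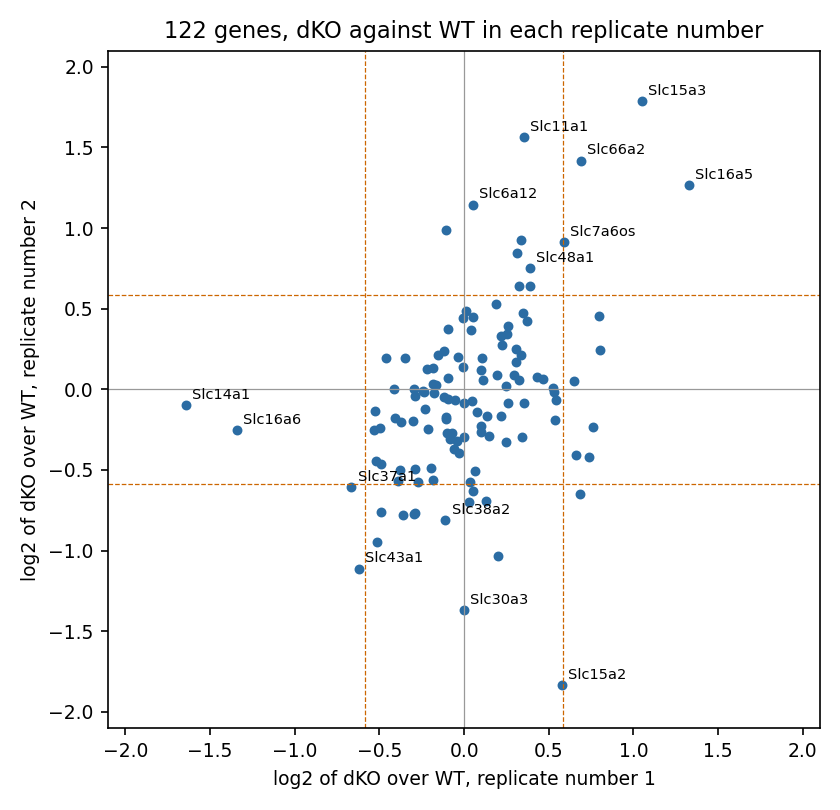
Each point is 1 of the 122 members, with the log2 ratio of dKO over WT intensity in replicate number 1 on the horizontal axis and in number 2 on the vertical axis, both after a floor of 16, and dashed lines mark 1.5-fold. The upper right corner holds the 4 members at least 1.5-fold higher in both numbers, Slc15a3, Slc16a5, Slc66a2 and Slc7a6os, and the lower left corner holds Slc37a1 and Slc43a1.

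Slc15a3 exports peptides and histidine from lysosomes and is known mainly from macrophages and dendritic cells. Its intensity was 50.99 and 120.4 in dKO cells, against 24.6 and 34.9 in WT cells. Both dKO arrays lay above both WT arrays, and the ratio was 2.07 in number 1 and 3.45 in number 2. Normalized log2 levels were 6.28 ± 0.67 in dKO and 4.87 ± 0.21 in WT cells (mean ± SD of 2 arrays), and their difference of 1.41 (SE 0.41) had an adjusted p of 0.99991 in limma, or 0.121 with the block. Without dKO 2 the difference was 0.94.

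Slc16a5 belongs to the proton-coupled monocarboxylate family and is known, in human cells, as a carrier of the diuretic bumetanide. It was at 93.7 and 65.8 in dKO cells, against 37.4 and 27.4 in WT cells, again without overlap, and its ratio was alike in the 2 numbers, 2.51 in number 1 and 2.40 in number 2. Normalized log2 levels were 6.30 ± 0.57 in dKO and 5.01 ± 0.47 in WT cells (mean ± SD of 2 arrays). The difference was 1.29 (SE 0.43), with an adjusted p of 0.99991 in limma, and 0.109 with the block. The other member of this class, Slc16a6, known in zebrafish liver as an exporter of ketone bodies, had lower values in dKO, at 15.5 and 42.9 in dKO cells, against 40.5 and 51.1 in WT cells, mostly through dKO 1 on this probe. The other probe of Slc16a6 had a mean log2 ratio of −0.82, against −0.80 for this one. The lactate carriers Slc16a1 and Slc16a3 were below 16 on all 4 arrays.

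Slc66a2, a protein of the PQ-loop repeat family, was at 77.7 and 206 in dKO cells, against 48.2 and 77.1 in WT cells. Its dKO arrays both exceeded its WT arrays, the lower of them by a small margin, and the ratio was 1.61 in number 1 and 2.67 in number 2. This gave a log2 difference of 1.05 (SE 0.45) with an adjusted p of 0.99991 in limma, and 0.205 with the block. It was 0.51 without dKO 2 and 1.59 without dKO 1. Slc7a6os was at 24.3 and 30.1 in dKO cells, against 16.2 and 15.6 in WT cells, with both WT arrays next to the floor. Its ratio was 1.51 in number 1 and 1.88 in number 2, where WT 2 was raised to 16. With a floor of 8 it was still 1.5-fold higher in both numbers. These values are dim, and the other probe of Slc7a6os had a mean log2 ratio of 0.14. Its neighbour Slc7a6, an amino acid exchanger, was at 46.8 and 42.9 in dKO and 39.1 and 45.6 in WT cells, with overlap.

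Slc37a1 was at 29.2 and 32.2 in dKO cells, against 46.3 and 49.05 in WT cells. The arrays of each genotype lay close together and the groups did not overlap, with a ratio of 0.630 in number 1 and 0.657 in number 2. This gave a log2 difference of −0.64 (SE 0.28), adjusted p = 0.99991 in limma, and 0.323 with the block. Slc43a1 was at 28.3 and 12.7 in dKO cells, against 43.5 and 34.6 in WT cells, without overlap, and its dKO 2 array was below the floor. Its log2 difference was −0.82 (SE 0.41), adjusted p = 0.99991 in limma, and 0.254 with the block. It was −0.36 without dKO 2, −0.54 without WT 1 and −1.29 without dKO 1.

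**Figure D3:**
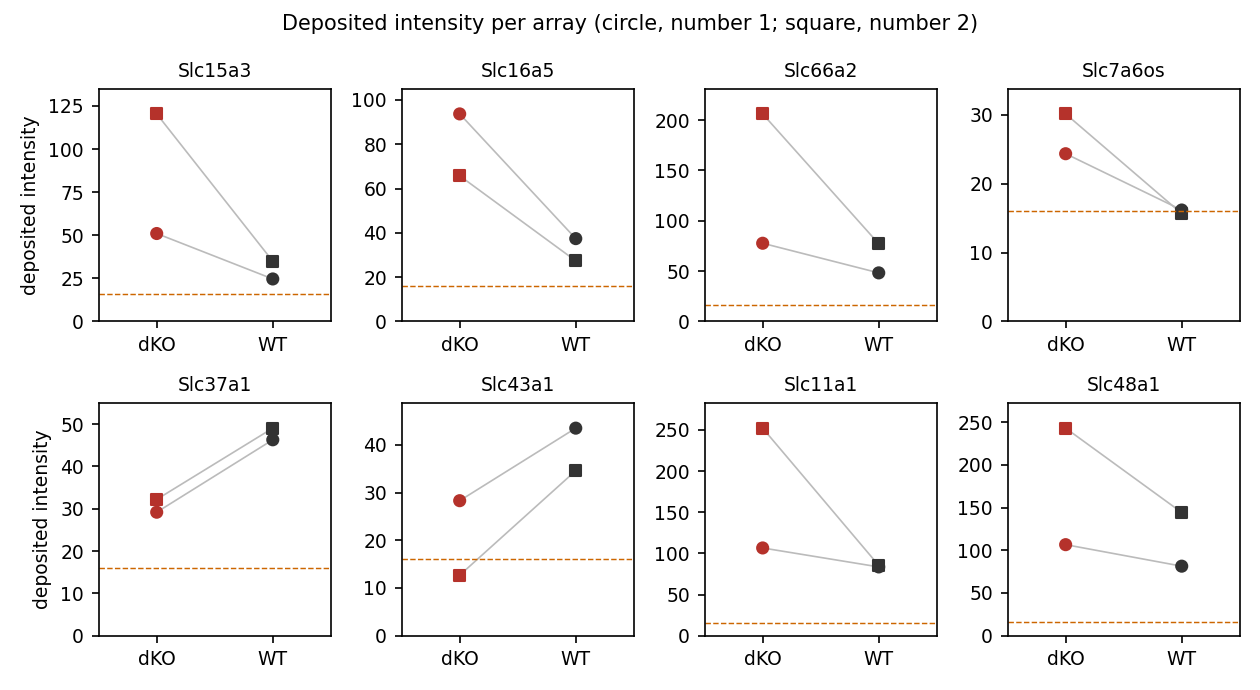
Deposited intensity on each array for 8 members, dKO left of WT, with circles for replicate number 1, squares for number 2, a line joining the arrays of a number and a dashed line at 16. The 6 members at least 1.5-fold apart in both numbers come first. They do not overlap between genotypes, which that choice makes likely. Slc11a1 and Slc48a1, 2 carriers known from macrophages, follow.

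Slc15a3, Slc16a5 and Slc66a2 had no promoter window to show. RefSeq gave promoter windows (GRCm38.p6) for 95 of the 122 members. They are shown for 3 carriers described above and below, as the 250 bases before the start of the gene, 5′ to 3′, because these are the stretches in which the letters of known binding sites can be looked for. Capitals mark every match, on either strand, to the core of PU.1, a factor of macrophages (GAGGAA), to the E-box bound by MYC and TFEB (CACGTG), to the AP-1 site of the MAP kinase pathways (TGANTCA), to an interferon response element (a pair of GAAA runs with any 2 letters between them), to the GC box (GGGCGG) or to the TATA element (TATAAA).
Slc43a1, chr2:84840073-84840322, + strand: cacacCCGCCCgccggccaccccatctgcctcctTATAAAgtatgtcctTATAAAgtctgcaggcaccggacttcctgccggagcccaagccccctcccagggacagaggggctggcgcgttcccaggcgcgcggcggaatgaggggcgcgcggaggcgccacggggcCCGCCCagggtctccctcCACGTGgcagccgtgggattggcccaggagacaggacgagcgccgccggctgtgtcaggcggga
Slc37a1, chr17:31295974-31296223, + strand: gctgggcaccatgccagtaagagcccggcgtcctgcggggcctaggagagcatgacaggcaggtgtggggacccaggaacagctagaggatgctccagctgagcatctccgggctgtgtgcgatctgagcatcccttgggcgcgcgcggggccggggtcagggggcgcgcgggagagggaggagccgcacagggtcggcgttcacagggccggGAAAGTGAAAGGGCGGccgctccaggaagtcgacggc
Slc11a1, chr1:74374953-74375202, + strand: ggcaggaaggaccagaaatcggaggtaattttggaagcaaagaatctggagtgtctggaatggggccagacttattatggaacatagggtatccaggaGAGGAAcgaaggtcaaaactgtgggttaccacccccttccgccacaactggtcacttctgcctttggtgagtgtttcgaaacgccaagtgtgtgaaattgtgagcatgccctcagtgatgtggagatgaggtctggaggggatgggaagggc
The Slc43a1 window held 1 E-box, 2 GC boxes and 2 TATA elements. In the Slc37a1 window there were 1 interferon response element and 1 GC box, which adjoin without overlap and form 1 run of capitals, and the Slc11a1 window held 1 PU.1 core. Of all 32851 windows of this length, 23.3% held the PU.1 core, 6.02% the E-box, 6.75% the AP-1 site, 2.98% the interferon response element, 32.7% the GC box and 12.4% the TATA element. Of the 132 windows of the members, 15.9% held the PU.1 core, 12.9% the E-box, 3.79% the AP-1 site, 1.52% the interferon response element, 62.1% the GC box and 4.55% the TATA element. The members were chosen for their intensity and the full set of windows was not, so these shares do not compare like with like. A match of letters is a description and does not show that a factor binds there.

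Among amino acid carriers, Slc38a2, which takes up glutamine and other small neutral amino acids with sodium, was at 854 and 1043 in dKO cells, against 921 and 1827 in WT cells. WT 2 was the highest array and the other 3 lay closer together. Slc6a6, the taurine carrier, was at 559 and 592 in dKO cells, against 415 and 562 in WT cells, with overlap. Slc38a9, the lysosomal arginine sensor of mTORC1, was at 44.1 and 44.9 in dKO cells, against 54.1 and 76.8 in WT cells, both dKO arrays below both WT arrays, in a ratio of 0.815 in number 1 and 0.584 in number 2. Slc38a10 varied between the replicate numbers rather than the genotypes, at 25.8 and 67.2 in dKO cells, against 14.2 and 105 in WT cells. The glutamine carrier Slc1a5 was at 36.3 and 11.4 in dKO cells, against 31.6 and 32.8 in WT cells, low on dKO 2 alone, and Slc38a1, another glutamine carrier, at 42.3 and 27.9 in dKO cells, against 35.6 and 34.9 in WT cells. The other members here were Slc7a6, the lysosomal glutamine carrier Slc38a7, Slc7a10 and the creatine carrier Slc6a8. Together with Slc1a5 and Slc38a1 these 6 had intensities from 10.2 to 46.8 and log2 differences from −0.36 for Slc1a5 to 0.25 for Slc7a10. The class had a median log2 difference of −0.03.

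Glucose enters T cells through Slc2a1 and Slc2a3. Slc2a3 was at 334 and 520.3 in dKO cells, against 356 and 543 in WT cells, and Slc2a1 at 228 and 379 in dKO cells, against 244 and 292 in WT cells. The genotypes overlapped for both. Slc50a1, a sugar carrier of the Golgi and the surface, was at 278 and 552 in dKO cells, against 234 and 435 in WT cells, and Slc45a4 at 207 and 212 in dKO cells, against 240.5 and 251 in WT cells, with overlap, in a ratio of 0.862 in number 1 and 0.844 in number 2. Slc2a6, Slc37a3 and Slc2a8, the other 3 members of this class beside Slc37a1, ranged from 11.3 to 124 in intensity and from −0.16 to 0.20 in log2 difference. The class median was −0.11.

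The mitochondrial class was the largest. None of its 26 members was 1.5-fold higher or lower in both numbers (2.14% and 1.55% of all features). Slc25a5, which exchanges ADP for ATP across the inner membrane and lies on the X chromosome, was at 3209 and 3766 in dKO cells, against 2992 and 3472 in WT cells. The phosphate carrier Slc25a3 was at 602 and 1157 in dKO cells, against 712 and 1167 in WT cells, with overlap. Slc25a45 was at 624 and 686 in dKO cells, against 494 and 591 in WT cells and Slc25a38, which brings glycine to heme synthesis, at 477 and 832 in dKO cells, against 369 and 620.4 in WT cells, each higher in dKO within both numbers, although the 3 probes of Slc25a38 disagreed in sign. The carnitine carrier Slc25a20, needed to burn fatty acids, was at 286 and 340.1 in dKO cells, against 265 and 326 in WT cells, close in both groups.

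Of the iron importers of mitochondria, Slc25a28 was at 417 and 629 in dKO cells, against 432 and 659 in WT cells, and Slc25a37, the one known from red cell precursors, at 52.4 and 56.6 in dKO cells, against 73.6 and 95.9 in WT cells. Slc25a37 had its dKO arrays below its WT arrays, in a ratio of 0.712 in number 1 and 0.590 in number 2. Slc25a11, which exchanges oxoglutarate for malate, was at 232 and 282 in dKO cells, against 302 and 399 in WT cells, in a ratio of 0.768 in number 1 and 0.707 in number 2, but its 3 probes disagreed in sign. Slc25a12, the exchanger of aspartate and glutamate, was at 125 and 120.5 in dKO cells, against 108 and 99.5 in WT cells, and the citrate carrier Slc25a1 at 64.8 and 87.9 in dKO cells, against 79.9 and 101 in WT cells. Slc25a30 had the lowest log2 difference of the class, −0.70, at 22.6 and 16.7 in dKO cells, against 32.3 and 32.2 in WT cells, and Slc25a24, an exchanger of ATP-magnesium for phosphate, the highest, 0.53, at 36.9 and 58.7 in dKO cells, against 21.1 and 49.7 in WT cells. The class had 8 members higher and 8 lower in both numbers (29.8% and 28.6% of all features), with a median of −0.01.

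Carriers of the Golgi and endoplasmic reticulum had 16 members, of which 3 were higher and 5 lower in both numbers (29.8% and 28.6% of all features). None was higher or lower by 1.5-fold in both (2.14% and 1.55% of all features). Slc35c1, which brings GDP-fucose to the Golgi for selectin ligands, was at 1469.7 and 1333 in dKO cells, against 1236 and 1317 in WT cells. Slc35b3 and Slc35b2 carry the sulfate donor PAPS. Slc35b3 was at 628 and 654 in dKO cells, against 714 and 639.5 in WT cells, with overlap, and Slc35b2 at 219 and 583 in dKO cells, against 126 and 425 in WT cells, higher in dKO within both numbers, in a ratio of 1.74 in number 1 and 1.37 in number 2 and with overlap. Slc35b1, which brings ATP into the endoplasmic reticulum, was at 259.6 and 407 in dKO cells, against 178 and 426 in WT cells. The carriers of CMP-sialic acid, Slc35a1, and of UDP-galactose, Slc35a2, were at 23.3 and 20.4 in dKO and 32.8 and 24.1 in WT cells and at 19.7 and 23.6 in dKO and 28.4 and 25.9 in WT cells, the first with overlap and the second without. Among the 12 members beyond the first 4, log2 differences ran from −0.48 for Slc35e1 to 0.33 for Slc35e2, and the class median was −0.07.

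Zinc carriers made up most of the metal class. Slc39a6, which brings zinc into the cell, was at 369 and 279 in dKO cells, against 256 and 277 in WT cells, Slc39a7, which releases it from the endoplasmic reticulum, at 135 and 309 in dKO cells, against 110.3 and 291 in WT cells, and Slc30a5, which loads the secretory pathway, at 308 and 266 in dKO cells, against 364 and 269 in WT cells. Slc39a4 was at 156 and 209.8 in dKO cells, against 164 and 253 in WT cells and the exporter Slc30a1 at 33.6 and 50.7 in dKO cells, against 28.8 and 40.3 in WT cells. These 5 overlapped between the genotypes. Slc39a11 did not, at 135 and 142 in dKO cells, against 189 and 196 in WT cells, in a ratio of 0.712 in number 1 and 0.727 in number 2. The copper importer Slc31a1 was at 28.5 and 38.6 in dKO cells, against 36.4 and 33.8 in WT cells and Slc11a2, the importer of ferrous iron, at 61.5 and 49.1 in dKO cells, against 69.9 and 72.5 in WT cells, lower in dKO within both numbers but with overlap. Slc30a3 stood out on WT 2 alone, at 15.6 and 22.2 in dKO cells, against 15.3 and 57.4 in WT cells. The class ran from −0.66 for Slc30a3 to 0.94 for Slc11a1, with a median of −0.05.

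Of the ion carriers, Slc12a2, which brings in sodium, potassium and chloride and sets cell volume, was at 295 and 367 in dKO cells, against 231 and 264 in WT cells, both dKO arrays above both WT arrays, in a ratio of 1.27 in number 1 and 1.39 in number 2, and its second probe had the same sign. The chloride and bicarbonate exchanger Slc4a2 was at 295 and 341 in dKO cells, against 254 and 382 in WT cells. Slc12a3, known as the thiazide-sensitive carrier of the kidney, was at 75.3 and 132 in dKO cells, against 60.9 and 111 in WT cells, and Slc4a8, a bicarbonate carrier, at 53.7 and 106 in dKO cells, against 34.3 and 102 in WT cells, both with overlap. The potassium and chloride exporter Slc12a7 was at 59.98 and 51.7 in dKO cells, against 76.98 and 88.6 in WT cells, without overlap. The urea carrier Slc14a1 had the lowest log2 difference of all 122 members, −0.90, mostly in number 1, at 16.7 and 33.05 in dKO cells, against 52.2 and 35.4 in WT cells. Of the class, 5 members were higher and 5 lower in both numbers (29.8% and 28.6% of all features), with a median of 0.09.

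Among vitamin and choline carriers, Slc44a2, of the choline carrier-like family, was at 1107 and 1182 in dKO cells, against 1034 and 1381 in WT cells. Slc46a3, a lysosomal carrier, was at 584 and 1014 in dKO cells, against 579.5 and 723 in WT cells, with dKO 2 the highest. The folate carrier Slc19a1 was at 116 and 163 in dKO cells, against 131 and 149 in WT cells, and Slc5a6, the carrier of biotin and pantothenate, at 106 and 121 in dKO cells, against 92.3 and 113 in WT cells, both with overlap. The riboflavin carrier Slc52a3 was at 56.01 and 91.3 in dKO cells, against 60.2 and 45.9 in WT cells, highest on dKO 2. The remaining members, the choline carrier Slc44a1, the thiamine carrier Slc19a2 and the vitamin C carrier Slc23a2, overlapped between the genotypes. The class median was 0.06.

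All 4 nucleoside carriers had negative log2 differences, from −0.52 to −0.14, with a median of −0.30 (all features 0.01). Of them 3 were lower in dKO in both numbers (28.6% of all features). Slc29a1, the equilibrative adenosine and uridine carrier, was at 98.3 and 148 in dKO cells, against 113 and 208 in WT cells, with overlap. The lysosomal carrier Slc29a3 was at 98.6 and 154 in dKO cells, against 96.4 and 229.8 in WT cells. Slc28a2, which concentrates purine nucleosides with sodium, was at 67.9 and 36.1 in dKO cells, against 83.2 and 61.5 in WT cells, and its close relative Slc28a2b at 132 and 89.9 in dKO cells, against 142 and 101 in WT cells. The 2 may share probe signal, which makes either uncertain as a single gene. Slc28a2b was put in this class after values were seen, so the count of 4 was not fixed beforehand. Carriers of lipids and organic ions had 4 members. Slc10a3 was at 147 and 219 in dKO cells, against 160.3 and 227 in WT cells, the carnitine carrier Slc22a5 at 60.6 and 87.7 in dKO cells, against 47.5 and 93.1 in WT cells, Slc10a7 at 25.5 and 17.2 in dKO cells, against 33.4 and 25.5 in WT cells and the fatty acid carrier Slc27a4 at 20.6 and 18.2 in dKO cells, against 19.7 and 25.8 in WT cells, with a class median of −0.15.

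The peptide, lysosomal, vesicular and neurotransmitter class had a median log2 difference of 0.57 over 9 members (all features 0.01), 0.31 in number 1 and 0.85 in number 2. Its description was widened after values were seen, so its median depends on that choice. The middle value was that of Slc66a1, with Slc6a12 (0.59) and Slc6a13 (0.62) next above and Slc17a5 (−0.14) next below. Without Slc6a12 and Slc6a13 the middle value would be −0.14. It held Slc15a3 and Slc66a2, described above. Slc15a4, the lysosomal peptide and histidine carrier closest to Slc15a3, was at 47.6 and 70.1 in dKO cells, against 49.6 and 90.8 in WT cells, and the vesicular nucleotide carrier Slc17a9 at 59.4 and 71.5 in dKO cells, against 72.7 and 73.7 in WT cells. Slc15a2, a peptide importer of the cell surface, split the numbers, at 78.4 and 18.7 in dKO cells, against 52.6 and 66.8 in WT cells, lowest on dKO 2. Slc66a1, which exports lysine and arginine from lysosomes, was at 20.9 and 36.3 in dKO cells, against 16.8 and 20.2 in WT cells. The GABA carrier Slc6a13 was at 33.8 and 67.9 in dKO cells, against 26.8 and 35.7 in WT cells and the betaine and GABA carrier Slc6a12 at 16.6 and 36.8 in dKO cells, against 9.72 and 16.6 in WT cells. These last 3 were highest on dKO 2. The sialic acid exporter Slc17a5 was at 24.7 and 24.5 in dKO cells, against 26.7 and 27.8 in WT cells. Of the class, 5 members were higher and 3 lower in both numbers (29.8% and 28.6% of all features). The lysosomal carriers Slc38a9, Slc38a7, Slc29a3 and Slc46a3 stand in other classes, with log2 differences of −0.53, −0.27, −0.27 and 0.25.

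**Figure D4:**
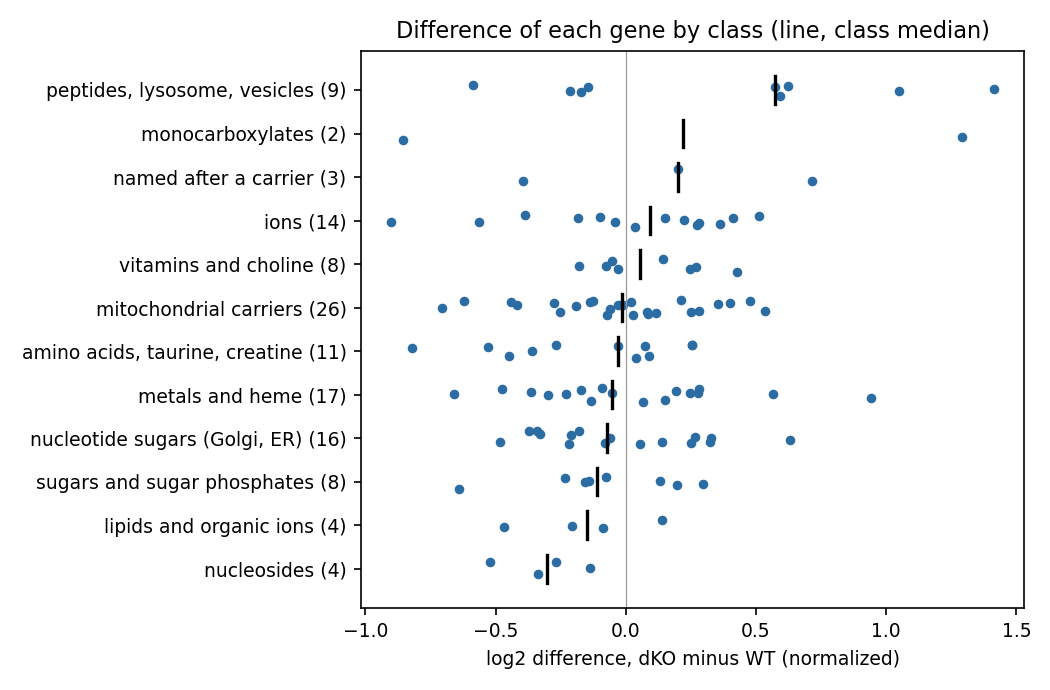
Each point is 1 member, placed by its normalized log2 difference of dKO minus WT, in rows by what it carries with the number of members in parentheses, and a black line marks the class median. The class of peptides, lysosome and vesicles has the highest median, 0.57, and the nucleoside carriers the lowest, −0.30, each over few genes. The description of the first and a gene of the second were set after values were seen. Without Slc6a12 and Slc6a13 the middle value of the first would be −0.14.

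Of 9 carriers listed as known mainly from macrophages and other phagocytes, 5 were members: Slc15a3, Slc11a1, Slc29a3, Slc48a1 and Slc46a3. Their median log2 difference was 0.57. Slc29a3 had a negative one, −0.27. For Slc46a3 it was 0.25, with a ratio of 1.01 in number 1 and 1.40 in number 2. Slc11a1, which pumps iron and manganese out of the phagosome, was at 107 and 252 in dKO cells, against 83.5 and 85.4 in WT cells. The dKO 2 array was far above the other 3, dKO 1 was next, and the ratio was 1.28 in number 1 and 2.95 in number 2, with a log2 difference of 0.94 (SE 0.39) and an adjusted p of 0.99991 in limma (0.305 with the block). Without dKO 2 the difference was 0.49. The heme carrier Slc48a1 was at 107 and 243 in dKO cells, against 81.4 and 144 in WT cells, with overlap, and its log2 difference of 0.57 was 0.14 without dKO 2, 0.31 without WT 1 and 0.99 without dKO 1. Slc40a1, the iron exporter that macrophages use and that is left out of the members, was at 229 and 269 in dKO cells, against 165 and 42.03 in WT cells.

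Markers of macrophages, monocytes and dendritic cells differed in opposite directions in the 2 numbers when summed. Of 20 markers on the array 11 passed, and their summed intensity was 1289 and 4271 in dKO cells, against 1683 and 1807 in WT cells, which is 0.766 times WT in number 1 and 2.36 times in number 2. Lyz1, at 692 and 2639 in dKO and 794 and 619.5 in WT cells, made up much of the sum, and the median log2 difference of the 11 was 1.00, with 0 in number 1 and 2.18 in number 2. Higher in dKO within both numbers were Adgre1 (40.7 and 131 in dKO and 17.9 and 26.8 in WT cells), Csf1r (29.1 and 53.04 in dKO and 18.99 and 20.04 in WT cells), C1qb (90.1 and 132 in dKO and 66.1 and 19.03 in WT cells), C1qc (48.6 and 86.5 in dKO and 38.9 and 11.02 in WT cells) and Vcam1 (86.97 and 123 in dKO and 59.3 and 26.9 in WT cells). Siglech, of plasmacytoid dendritic cells (45.6 and 236 in dKO and 213 and 572 in WT cells), Mpeg1 (63.4 and 294 in dKO and 128 and 375 in WT cells) and Clec9a (10.8 and 10.5 in dKO and 22.9 and 27.98 in WT cells) were lower within both. Clec9a passed through the WT arrays alone and so had to be lower. Lyz1 and Lyz2 (176 and 417 in dKO and 309 and 91.8 in WT cells) were lower in number 1 and higher in number 2, and S100a8 was above 16 on both arrays of number 2 alone. Itgam, Itgax, Fcgr1, Marco and Vsig4 were below 16 on all 4 arrays, and C1qa, Cd14, Cd209a and S100a9 exceeded 16 on dKO 2 alone. The share of these cells in the values of Slc15a3, Slc11a1, Slc29a3, Slc48a1 and Slc46a3 was not tested. In sorted cells measured in bulk, a change in the number of such cells cannot be told apart from a change of RNA per cell.

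Of the red cell precursor markers only globin genes passed, and these differed between the groups. The globin genes Hba-a1, Hbb-bs and Hbb-bt, the 3 of 11 that passed, summed to 801 and 4149 in dKO cells, against 57.0 and 129 in WT cells. Limma called all 3 higher with the block and 0 without it (0.197% and 0.031% of all features). Alas2, Klf1, Rhag, Epb42, Ermap, Tspo2 and Car1, and the globin gene Hbb-b2, were below 16 on every array. Of 10 carriers known mainly from red cell precursors 6 were members, with a median log2 difference of −0.49. Slc25a37, Slc14a1, Slc43a1 and Slc11a2 had lower values in dKO cells in both numbers, Slc25a38 had higher ones with probes that disagreed, and Slc25a39 overlapped. Slc4a1, the anion exchanger of red cells, which is left out of the members, was at 10.4 and 59.5 in dKO cells, against 5.999 and 6.89 in WT cells. CD8 T cell and NK cell markers (9 of 15) summed to 1722 and 2028 in dKO cells, against 3340 and 3723 in WT cells. Of the 9, 5 were at least 1.5-fold lower in dKO in both numbers (1.55% of all features). These were Cd160 (257 and 211 in dKO and 606 and 948 in WT cells), Ctsw (449 and 772 in dKO and 1151 and 1414 in WT cells), Klra3 (9.27 and 13.6 in dKO and 39.6 and 44.1 in WT cells), Klre1 (15.7 and 12.9 in dKO and 83.6 and 33.1 in WT cells) and Klrb1c (9.38 and 12.5 in dKO and 34.96 and 35.96 in WT cells). Klra3, Klre1 and Klrb1c, and also Klrk1, passed through the WT arrays alone and so had to be lower in dKO. Cd8b1 was at 691 and 512 in dKO and 736 and 602 in WT cells, and Cd8a, Ncr1 and Gzmb were below 16 on all arrays. CD4 T cell markers (11 of 12) summed to 20182 and 24735 in dKO cells, against 18938 and 28114 in WT cells, with overlap. B cell markers (5 of 10) summed to 100.5 and 477 in dKO cells, against 257 and 276 in WT cells. Naive T cell markers (6 of 7) summed to 3766 and 3639 in dKO cells, against 3669.7 and 4118 in WT cells. The share of any of these cells in the carriers' values was not tested.

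**Figure D5:**
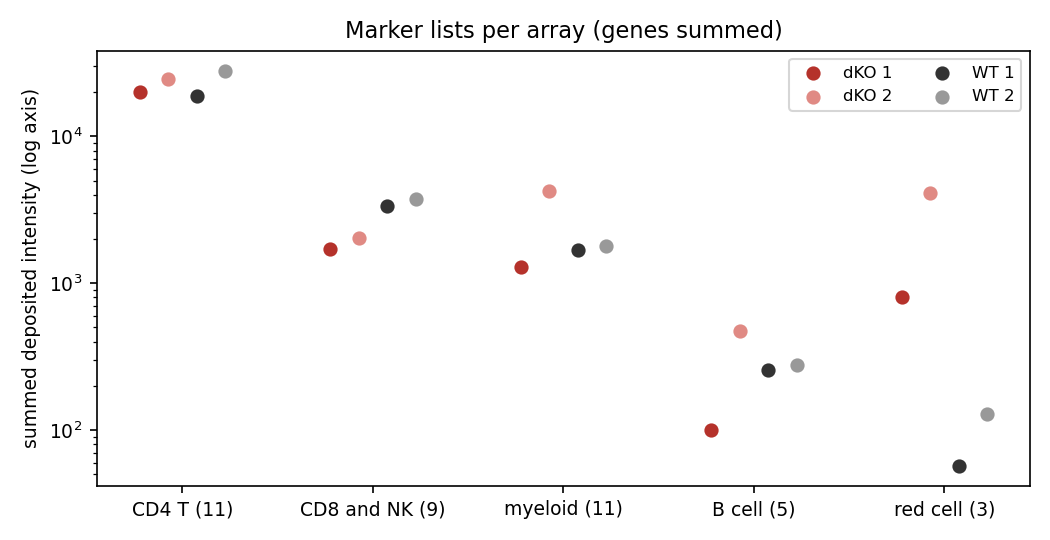
Summed deposited intensity of the markers above 16 on at least 2 arrays, for each list and array, on a log axis, with the number of genes summed in parentheses. The red cell markers summed, all of them globin genes, separate dKO from WT most widely, at 801 and 4149 in dKO against 57.0 and 129 in WT. The myeloid sum is highest on dKO 2.

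Carriers known to rise when T cells are activated were partly below background. Of 20 listed, 18 were on the array and 10 were members, with a median log2 difference of −0.04. By the 1.5-fold rule in both numbers, 0 were higher and 0 lower (2.14% and 1.55% of all features). Slc3a2, the heavy chain shared by several amino acid exchangers, was listed at 6.26 and 15.2 in dKO cells, against 4.74 and 14.01 in WT cells. It and Slc7a1, Slc1a4, Slc16a1, Slc16a3, Slc7a11, Slc43a3 and Slc39a10 stayed at or below 15.2 on every array, so a difference in them could not be seen here. A dim probe does not show that its transcript was missing.

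Of the members, 6 lie on the X chromosome, where Xist also lies. Their log2 differences ran from −0.34 for Slc35a2 to 0.12 for Slc25a5, with Slc10a3, Slc25a14, Slc25a53 and Slc6a8 in between.

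The partners and regulators of nutrient transport that are not carriers themselves gave 39 genes above background of 44 on the array. Limma called 0 of them, with or without the block, and the median log2 difference was 0.03. Over all features it called 0.031% higher and 0.0103% lower, and 0.197% and 0.124% with the block. By the 1.5-fold rule in both numbers, 2 of the 39 were higher and 2 lower (2.14% and 1.55% of all features). At least 1.5-fold higher in both numbers were Asns, asparagine synthetase, at 39.5 and 89.5 in dKO cells, against 20.2 and 36.3 in WT cells, and Emb, a chaperone of monocarboxylate carriers at the cell surface, at 1021 and 993 in dKO cells, against 583 and 557 in WT cells. Neither overlapped, and the ratios were 1.95 in number 1 and 2.47 in number 2 for Asns and 1.75 in number 1 and 1.78 in number 2 for Emb. Lower by as much were Atp1b1, a subunit of the sodium pump, at 46.6 and 102 in dKO cells, against 126 and 274 in WT cells, and Ddit3, a transcription factor of the stress response, at 119.6 and 116 in dKO cells, against 184 and 206 in WT cells. With the block the adjusted p in limma was 0.152 for Asns, 0.0918 for Emb, 0.0648 for Atp1b1 and 0.231 for Ddit3. Atf4, the regulator of amino acid supply genes, was at 655 and 1689 in dKO cells, against 699 and 1538 in WT cells, Ldha, which makes lactate, at 1878 and 2250.2 in dKO cells, against 1853 and 1984 in WT cells, and the transferrin receptor Tfrc at 163 and 225 in dKO cells, against 198 and 404 in WT cells, with Tfrc lower in dKO within both numbers, in a ratio of 0.823 in number 1 and 0.557 in number 2. The zinc-binding metallothionein Mt1 was at 74.5 and 532 in dKO cells, against 61.4 and 159 in WT cells, high on dKO 2.

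Of the members, 33 had more than 1 probe above background. For 14 of them, Slc15a4, Slc1a5, Slc22a5, Slc25a11, Slc25a20, Slc25a3, Slc25a38, Slc30a7, Slc35a5, Slc35c1, Slc35c2, Slc35e2, Slc39a7 and Slc4a8, the probes differed in sign. Over the 33, the mean log2 ratio differed between probes of a gene by a median of 0.35 and by up to 0.79. Slc11a1 and Slc12a2 had probes of the same sign within 0.18 and 0.06 of each other. Other genes had probes of 1 sign but unlike size. The mean log2 ratio ran from −0.77 to −0.23 for Slc45a4, −0.67 to −0.06 for Slc44a2 and −0.71 to −0.34 for Slc29a1. The probe used had the smallest difference in each of these. For Slc38a2 it ran from −0.46 to −0.01, and the probe used had the largest. The other probe of Slc7a6os had a mean log2 ratio of 0.14. Slc15a3, Slc16a5, Slc66a2, Slc37a1 and Slc43a1 had 1 such probe each, so their differences have no second probe to be set beside.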

How the data were processed

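The authors deposited 1 linear intensity per probe and array. Some lie below 0, so background had been subtracted. The scanner software and normalization are not stated in the labels. A second table was not used, because the names of its 8 value columns fit no sample title. Groups and replicate numbers came from the sample titles. Values under 16 were set to 16, and log2 values of the 4 arrays were quantile normalized. Features were probes above 16 on at least 2 arrays, the brightest by mean for each gene symbol of the platform annotation, 9662 in all, 7775 of them named. Entrez IDs matched all 122 members to RefSeq (GRCm38.p6), with no symbol changed. Limma 3.58.1 in R 4.3.3 (lmFit, eBayes with trend, Benjamini-Hochberg over all features, two-sided, threshold 0.05) tested genotype with 2 residual degrees of freedom, and 1 with the replicate number as a block. The block stands beside each result because the arrays of a number share 1 distribution of values. Ratios within a number used deposited intensities floored at 16. Array number limits the precision.

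Values on every array are given for up to 4 members of highest mean in each class, for members at least 1.5-fold apart in both numbers, and for others chosen after their values were seen. The members and lists were chosen with earlier results of these data known, and Slc28a2b was put in the nucleoside class, and the peptide class description widened, after values were seen.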

Additional observations from a re-analysis of the deposited data

How the results depend on the processing

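Of 20 alternatives 3 were chosen after seeing the data (quantile normalization before the floor, and the replicate block with floors of 8 and 32). Limma called 3 features higher and 1 lower over all features. The counts were 19 and 12 with the replicate block, 37 and 31 with the block on the authors' values, 28 and 22 with the block at floor 8, and 23 and 21 with the block at floor 32. They were 57 and 40 with no filter. Without the block they were 0 and 0 at floor 32, on the authors' values, with probes above the floor on at least 1 array or on all 4, and with the mean of probes. Quantile normalization before the floor gave 1 and 1, and leaving out any array 0 to 0 in both directions, where the lone array left in a genotype is assumed to vary like the other genotype. Solute carriers called were 0 in every alternative except no filter, with 1 higher (Slc15a3, adjusted p = 0.0424 in limma). Members 1.5-fold apart in both numbers were 2 higher and 0 lower with log2(value + 16), and 3 higher and 0 lower at floor 32, with or without the block, where 93 members were left. With probes above 16 on all 4 arrays, 103 members were left, 3 higher and 2 lower. The lower ones were then Slc37a1 and, by its other probe, Slc16a6, and Slc43a1 was not among them. The count of members 1.5-fold apart needs both arrays of a number, so it has no value with an array left out. The median log2 difference was 0.034 at floor 32, with or without the block, and −0.042 (without WT replicate 1) to 0.027 (without WT replicate 2) over the fits that leave out 1 array each, where log2 differences ran from 0.94 to 1.89 for Slc15a3, 0.89 to 1.69 for Slc16a5, 0.51 to 1.59 for Slc66a2, 0.66 to 0.77 for Slc7a6os, −0.72 to −0.56 for Slc37a1, −1.29 to −0.36 for Slc43a1, 0.49 to 1.40 for Slc11a1, 0.14 to 0.99 for Slc48a1, 0.67 to 1.59 for Asns, 0.57 to 1.10 for Emb, −1.86 to −1.002 for Atp1b1 and −0.90 to −0.54 for Ddit3. Why these values moved was not tested. Of 256 values of single named genes under alternatives, 251 kept their direction and side of the threshold and 5 gained a call, 4 of them Atp1b1, and 0 changed sign. Deviations of dKO 1 and WT 1 from their group means correlated at 0.484 over 9662 features. The labels do not state any pairing, and with only 2 numbers the data cannot settle it.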
